A study of Drosophila melanogaster with 3 samples.

Results

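Genes of the synapse and of voltage-gated ion channels were examined for occupancy by Smox, as a set of 35 named genes taken by symbol from the fly annotation, out of 13945 protein-coding genes on the 6 main chromosome arms. All 35 symbols were found. By role, 12 were presynaptic, 7 postsynaptic and 12 channel genes, and 4 were a neuronal identity gene (elav) and transmitter genes (VGlut, ChAT and Gad1). The data were ChIP-seq peak lists from 3 biological replicates of 1 group, white prepupae taken whole with the sexes pooled, with no age given beyond the stage. They came from 1 stable transgenic fly line that expressed Smox with GFP at the C terminus, and chromatin was precipitated with an anti-GFP antibody. No untagged or treated group was analysed here, so replicates were compared with one another and the genes with all other genes. Every replicate contributed 30000 ranked regions, as did the pooled replicates, and the 6622 strongest pooled regions formed the authors' thresholded list. Read counts are not in the lists, so depth is unknown and strength is given only as a rank within a list, with 1 the strongest.

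Smox is the SMAD transcription factor of the Activin-type branch of TGF-beta signalling, activated by the receptor babo. In the fly nervous system this branch is known for neuron remodelling at metamorphosis, and at the larval neuromuscular junction it is known to affect the amount of the muscle glutamate receptors. Presynaptic proteins release transmitter from vesicles at the active zone, postsynaptic receptors and scaffolds receive it, and voltage-gated channels carry the currents that trigger and end each signal. Because chromatin came from whole animals, a site occupied in few cells cannot be told apart from a site occupied weakly in many.

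Strong Smox regions lay near the start sites of synapse and channel genes at about the share seen over all genes, which were mostly shorter. A gene was called bound where the summit of a thresholded peak lay no more than 1 kb from any of its transcription start sites (TSSs). Bound by this rule were 6 of the 35 genes, or 17.1% (exact 95% interval 6.56 to 33.6, counting error only), beside 18.9% of all protein-coding genes, a share near the background. They were the presynaptic genes Syx1A, Nrx-1 and futsch, the postsynaptic scaffold gene dlg1, the calcium channel gene Ca-alpha1T, and elav. In the replicate lists, each restricted to its 6622 strongest regions, 6, 7 and 7 of the genes had a summit this close, a mean of 6.67 ± 0.577 (SD, n = 3). The same count over all genes gave 20.7%, 20.6% and 22%, so the replicates, too, placed the set at about the background share. Each of the 3 replicates had a strong region this close at 5 of the 35 genes, beside 15.3% of all genes. The bound gene that fell outside this count was futsch. The members were long, with a median of 26844 bp against 2166 bp, and had a median of 2 TSSs against 1. By length, 1 of 6 members under 5 kb was bound, beside 14.3% of all such genes, and 2 of 9 of 5 to 20 kb (30.8%). From 20 to 50 kb 2 of 13 were bound (37.1%), and over 50 kb 1 of 7 (38.4%). The background share of 18.9% is thus not matched for length.

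**Figure D1:**
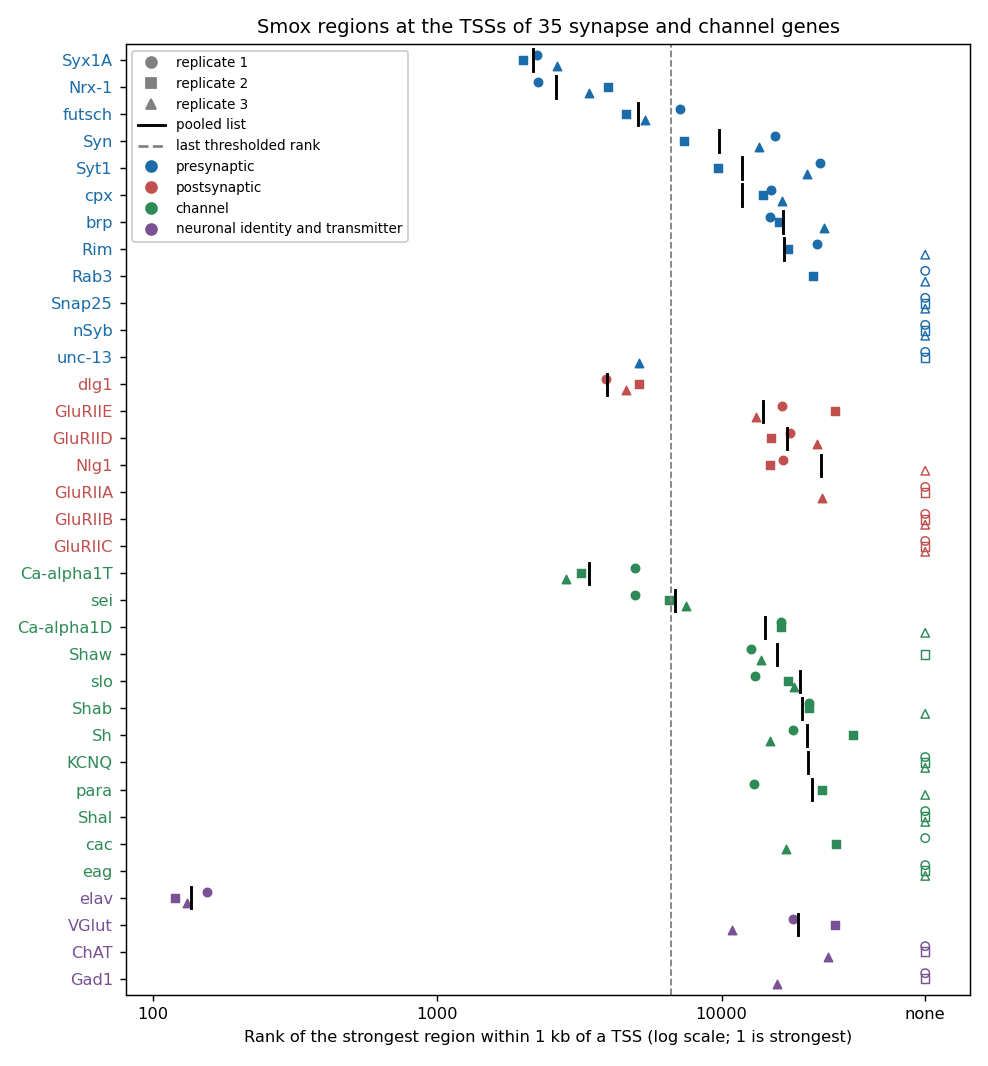
Rank of the strongest region within 1 kb of a TSS for each of the 35 genes, on a log axis, in replicate 1 (circles), replicate 2 (squares) and replicate 3 (triangles), with the pooled rank as a black bar and open symbols where a replicate had no region. Genes are coloured by role. The elav symbols lie between 119 and 155, far to the left of all others, and most genes lie to the right of the dashed line at rank 6622.

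The strongest site of the set near a TSS was at elav, which encodes the RNA-binding protein used as a marker of all neurons. Its main summit, 257 bp upstream of the TSS, ranked 155, 119 and 132 in replicates 1, 2 and 3 and 136 in the pooled list. A further elav summit, 590 bp downstream of the same TSS and in an intron, ranked 1754, 1154 and 1469. Both lay within the annotated span of arg, while the nearest protein-coding TSS was that of elav. Syx1A, the plasma-membrane SNARE of vesicle fusion, had its summit 663 bp upstream of the TSS, with replicate ranks of 2244, 2001 and 2636. That summit lay inside the neighbouring gene eIF4EHP, and a TSS of CG10694 was also within 1 kb. Nrx-1, which encodes the presynaptic adhesion protein neurexin, ranked 2267, 3990 and 3421 at a summit 111 bp downstream of a TSS, in an annotated 5′ UTR. The rank ranges of Syx1A and Nrx-1 overlapped, whereas the weakest rank of the main elav summit was more than 1000 places ahead of both.

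The other bound genes had weaker peaks, several of them at internal start sites. Ca-alpha1T, the low-voltage-activated calcium channel gene, ranked 4945, 3190 and 2840 at 875 bp upstream of its TSS, in intergenic sequence. At dlg1, which encodes the scaffold protein Discs large, 3 summits lay near TSSs that start 15.2 kb and 20.7 kb downstream of the first one. The best dlg1 ranks per replicate were 3914, 5112 and 4620. Of these 3 summits, 2 lay in overlapping intervals and matched the same replicate regions. The microtubule-associated protein gene futsch, known for its role in presynaptic bouton structure, had 1 summit 283 bp upstream of a TSS 2.66 kb inside the gene. Its ranks were 7136, 4593 and 5362, so replicate 1 placed it below the 6622 strongest. From Syx1A through Nrx-1, Ca-alpha1T and dlg1 to futsch, each gene's range of ranks overlapped that of the next, so neighbours in this order were not separated by the replicates. Genes farther apart were in part: every Syx1A rank was ahead of every rank of Ca-alpha1T, dlg1 and futsch, and every Nrx-1 rank was ahead of those of futsch. Among bound genes with start sites more than 1 kb apart, the strongest summit sat at an internal one in 2 of 3 of these genes and in 50.3% of 785 such genes overall.

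Sequences under the strongest summits of the bound genes are shown, of which that of futsch was strong in only 2 of the 3 replicates. They reach 75 bp to either side of the summit and are read 5′ to 3′ on the plus strand of the Release 6 (dm6) genome from RefSeq, with the SMAD box (GTCT, or AGAC on the other strand) in capitals. The windows were chrX:523408-523558 for elav, chr3R:24106351-24106501 for Syx1A, chrX:6193283-6193433 for Ca-alpha1T, chrX:11390740-11390890 for dlg1 and chrX:1411368-1411518 for futsch. Nrx-1 is not shown because its summit was in an annotated UTR.
elav: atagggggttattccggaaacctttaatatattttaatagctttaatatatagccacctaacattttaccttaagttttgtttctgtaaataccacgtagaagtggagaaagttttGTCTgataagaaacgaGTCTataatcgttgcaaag
Syx1A: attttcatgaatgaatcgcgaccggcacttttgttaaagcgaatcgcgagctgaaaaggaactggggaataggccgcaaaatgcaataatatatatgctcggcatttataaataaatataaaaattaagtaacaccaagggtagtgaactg
Ca-alpha1T: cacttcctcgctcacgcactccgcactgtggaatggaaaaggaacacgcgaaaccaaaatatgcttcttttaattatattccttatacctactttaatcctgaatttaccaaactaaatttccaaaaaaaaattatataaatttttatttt
dlg1: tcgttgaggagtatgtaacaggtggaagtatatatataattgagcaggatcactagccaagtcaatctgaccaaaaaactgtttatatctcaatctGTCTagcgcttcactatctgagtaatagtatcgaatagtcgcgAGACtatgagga
futsch: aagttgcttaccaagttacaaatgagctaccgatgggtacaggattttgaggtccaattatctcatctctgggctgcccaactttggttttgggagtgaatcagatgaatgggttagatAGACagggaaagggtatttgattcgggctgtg
The elav and dlg1 windows held 2 SMAD boxes each and the futsch window 1, while those of Syx1A and Ca-alpha1T held none. The GC content was 31.8% at elav and 31.1% at Ca-alpha1T, 37.1% at Syx1A, 38.4% at dlg1 and 44.4% at futsch.

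Counting summits anywhere in the gene body added 5 genes, most of them channels. A thresholded summit lay within the body of 9 of the 35 genes (25.7%), beside 12.5% of all protein-coding genes. Those 9 were futsch, Nrx-1, Syn, dlg1, KCNQ, Shal, Shaw, ChAT and elav. By either rule 11 genes had a summit, or 31.4% beside 22.6% of all genes. These shares are not matched for gene length, and the members were long. Of the 20 members of at least 20 kb, 5 (25%) had a thresholded body summit, beside 60.1% of all genes of that length. Between 5 and 20 kb the order was the other way, at 4 of 9 beside 28.9%. The replicate lists gave 9, 10 and 10 genes with a strong region in the body, beside 13.4%, 12.9% and 13.3% of all genes. In 8 genes each of the 3 replicates had a strong region in the body, not always the same one, beside 10.5% of all genes. A thresholded body summit covered by strong regions of all 3 replicates was present in 7 genes, beside 10.1% of all genes. Shal, where each summit was strong in only 2 replicates, is among the 8 but not the 7.

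KCNQ, which encodes a slowly activating potassium channel, held the other high-ranking region of the set. Its strongest summit ranked 190, 277 and 169 in the replicates and 201 in the pooled list, and lay in an intron 4.82 kb from the nearest KCNQ start site. The weakest rank of the main elav summit (155) was still ahead of the best KCNQ rank (169). The TSS nearest to the KCNQ summit was that of mlt, a gene within KCNQ, at 770 bp. A neighbouring KCNQ summit ranked 2869, 3399 and 1836 and was 164 bp from the mlt TSS. The remaining KCNQ summit ranked 3912, 9591 and 5205, and mlt was again the nearest gene, at 1425 bp. At the KCNQ start sites themselves, none of the 3 replicates had any region within 1 kb. The pooled list had 1 there, 239 bp upstream of a TSS, at rank 20073.

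Shal and Shaw, potassium channel genes named after Shaker, had weaker intronic summits. In Shal, a summit 1.17 kb downstream of the TSS ranked 3679, 6152 and 9191, and another at 8.7 kb ranked 10276, 4571 and 4091. Each of them was among the 6622 strongest regions of only 2 replicates. The Shaw summit, 1.51 kb downstream of a TSS, ranked 5372, 4834 and 6518. For both genes the nearest protein-coding TSS was their own. Syn, the gene of the vesicle-associated protein synapsin, had a summit 23 kb downstream of its TSS that ranked 5193, 4745 and 2880. The nearest TSS there was that of Timp, at 655 bp, a metalloproteinase inhibitor gene nested in Syn. ChAT, the acetylcholine-synthesizing enzyme gene, had a summit 14.5 kb downstream of its TSS, with ranks of 2612, 2071 and 2508 that differed little between replicates. A noncoding RNA gene, lncRNA:CR46265, had a TSS 349 bp from it, and the nearest protein-coding TSS was that of CG34283, at 2618 bp. In total another gene's protein-coding TSS was nearest for 5 of the 14 body summits (35.7%), beside 25.1% of body summits of all genes.

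**Figure D2:**
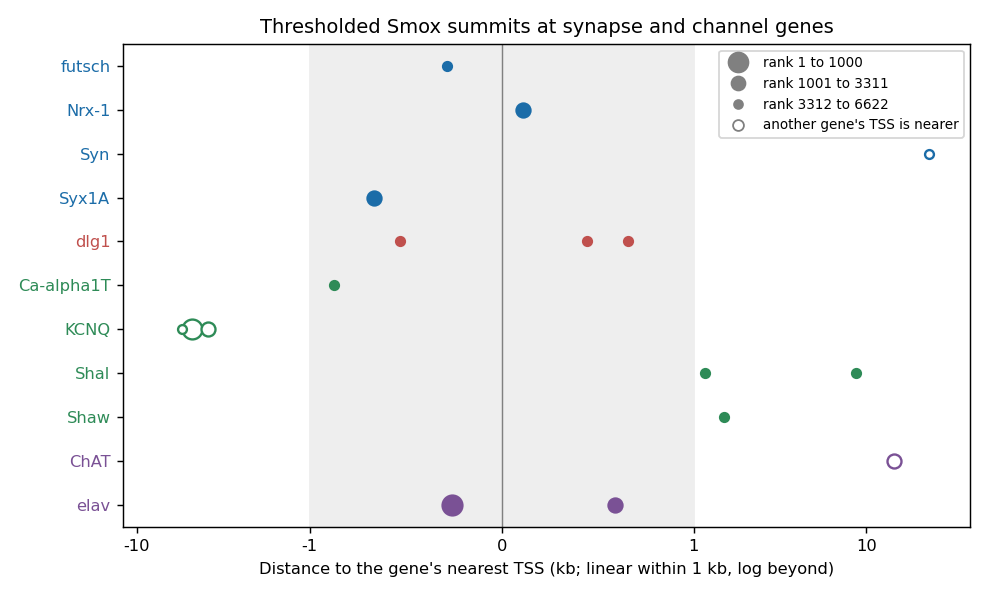
Distance in kb from each of the 17 thresholded summits to the nearest TSS of the gene it was assigned to, negative upstream, on an axis that is linear within 1 kb (grey band) and logarithmic beyond. Symbol size gives the class of pooled rank, and open symbols mark summits with another gene's protein-coding TSS nearer, which are the KCNQ, Syn and ChAT summits.

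Most presynaptic genes had only weak regions or none near their start sites. Regions of the pooled list below the threshold are called weak regions here, and a replicate rank is that of its strongest region within 1 kb of any TSS of the gene. The calcium sensor gene Syt1 ranked 22196, 9737 and 19944 in the replicates. The fusion clamp gene cpx ranked 14931, 13921 and 16365. For brp, which encodes the active zone protein Bruchpilot, the ranks were 14802, 15913 and 22949. All of these ranks lay outside the 6622 strongest regions. The Syn start site ranked 15380, 7380 and 13580, and there the TSS of CG12814, 204 bp from the pooled summit, was closer than that of Syn. The active zone scaffold gene Rim had a region in replicates 1 and 2, at 21581 and 17162. For the vesicle GTPase gene Rab3 the only region was in replicate 2, at 20959. No list had a region within 1 kb of a TSS of the SNARE genes nSyb and Snap25, although Snap25 was the longest gene of the set at 225 kb. For the vesicle-priming gene unc-13 the replicates differed, with a region at rank 5114 in replicate 3, 100 bp from a TSS, and none within 1 kb in replicates 1 and 2 or in the pooled list.

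The genes of the muscle glutamate receptor had no thresholded summit. All of them are under 5 kb long, and of all genes of that length 14.3% were bound and 4.02% had a thresholded body summit. A count of 0 in 5 genes does not set them apart from those shares. GluRIIA and GluRIIB encode alternative subunits of this receptor, and GluRIIC, GluRIID and GluRIIE its constant subunits. Of the 5 genes, GluRIID ranked 17409, 14871 and 21594 near its TSS and GluRIIE 16247, 25104 and 13189, all well outside the 6622 strongest. GluRIID and GluRIIE overlap in the genome, so a region can count for both. GluRIIA had a region near its TSS in replicate 3, at 22458, and GluRIIB and GluRIIC had none in any list. In the gene bodies, GluRIIB had 1 pooled region at rank 17187 and GluRIIC 1 at 27504, while GluRIIA had none. Nlg1, which encodes a neuroligin, the postsynaptic partner of neurexin, ranked 16386 and 14734 in replicates 1 and 2 and had no region in replicate 3. Over the 7 postsynaptic genes, dlg1 was thus the gene with strong regions, in each of the 3 replicates.

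Among the channel genes, sei lay just outside the threshold. This potassium channel gene had a pooled rank of 6867 and replicate ranks of 4952, 6525 and 7516, so it counted as strong in replicates 1 and 2. The nearest TSS to its pooled summit was that of the actin-severing protein gene tsr, at 185 bp, while the sei TSS was farther away. Next in pooled rank among unbound channel genes were Ca-alpha1D at 14237 and Shaw at 15700. At the Shaw start sites, replicates 1 and 3 had regions at 12668 and 13730 and replicate 2 had none. The replicate ranks of Ca-alpha1D, a high-voltage-activated calcium channel gene, were 16188 and 16198, with no region in replicate 3. The calcium-activated potassium channel gene slo ranked 13050, 17167 and 17932. Sh, the founding potassium channel gene of the family, ranked 17787, 28986 and 14848. The sodium channel gene para ranked 12975 and 22557 in replicates 1 and 2, and Shab 20295 and 20234, and neither had a region in replicate 3. The presynaptic calcium channel gene cac had regions at 25315 and 16769 in replicates 2 and 3 and none in the pooled list. For eag and Shal, no list had a region within 1 kb of a TSS.

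The transmitter genes differed from elav. VGlut, the vesicular glutamate transporter gene, ranked 17878, 24982 and 10831 near its TSSs. ChAT and Gad1, the gene for the GABA-synthesizing enzyme, each had a region there only in replicate 3, at 23708 and 15621. The transmitter genes thus had no strong region at their start sites in any of the 3 replicates.

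With weak regions counted too, most of the 35 genes had a region, a count that mixes genes of very different length. A pooled region of any rank lay within 1 kb of a TSS in 23 of the 35 genes (65.7%), beside 37.7% of all genes. One lay in the body of 30 genes (85.7%), beside 26.2%. Of the 29 genes that were not bound, 17 (58.6%) had a weak region within 1 kb, beside 23.2% of 11306 such genes overall. The median best rank was 16603 in these 17 genes and 15302 in the unbound genes overall. By role, a pooled region within 1 kb was present in 8 of 12 presynaptic, 4 of 7 postsynaptic, 9 of 12 channel and 2 of 4 identity and transmitter genes.

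Gene length bears on these shares, since the members were long. Their median length was 26844 bp, against 2166 bp for all protein-coding genes. Channel genes had a median of 51456 bp and postsynaptic genes of 4161 bp. Of the 20 members of at least 20 kb, 5 (25%) had a thresholded summit in the body, beside 609 of 1013 genes of that length (60.1%). The strong regions of the replicates gave 26.7% ± 2.89 (SD, n = 3) of the members and 58.8% ± 0.804 (SD, n = 3) of all genes of at least 20 kb. The ranges over replicates did not overlap, but they are between lists over the same genes. They do not measure the uncertainty of a share that rests on 20 members. None of the 7 members over 50 kb (Ca-alpha1T, Sh, Shab, Snap25, cac, eag and para) had a thresholded body summit, beside 67.1% of 307 genes, although all 7 had weak regions. Between 5 and 20 kb the order was the other way, with 4 of 9 members beside 28.9%. Weak regions counted, a region within 1 kb of a TSS was present in 3 of 6 members under 5 kb (30.4% of all such genes), 5 of 9 of 5 to 20 kb (53.4%), 11 of 13 of 20 to 50 kb (72.9%) and 4 of 7 over 50 kb (80.5%). A pooled region in the body was present in 5 of 6 members under 5 kb (12.8%) and 6 of 9 of 5 to 20 kb (54%). In the longer classes it was present in 12 of 13 (96.5%) and 7 of 7 (99.3%). Within classes of length the members thus stood above all genes in some and level or below in others. For start sites of strong peaks, 3 of the 20 long members were bound, while 37.1% of all genes of 20 to 50 kb and 38.4% of those over 50 kb were. Genes are not independent replicates, and no test was made of these shares.

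**Figure D3:**
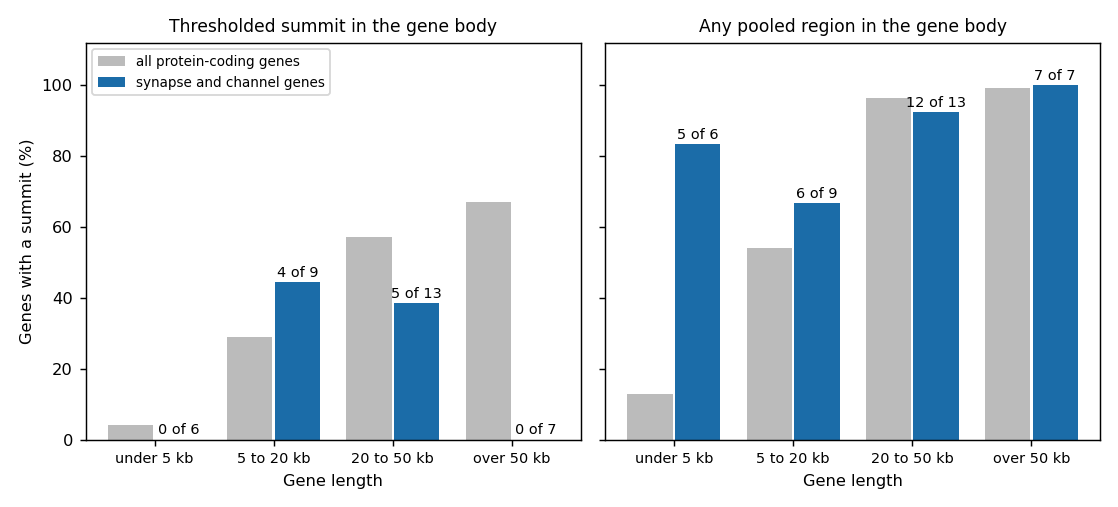
Percentage of genes with a summit in the gene body, by class of gene length, for all protein-coding genes (grey) and the 35 synapse and channel genes (blue, with counts), for thresholded summits (left) and for any pooled region (right). Over 50 kb the blue bar is at 0 of 7 on the left and at 7 of 7 on the right.

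Per length of gene, strong summits were sparser in the members than over all genes, and the pooled regions were somewhat sparser too. Thresholded summits occurred at 1.07 per 100 kb of member gene body and at 4.4 per 100 kb over all protein-coding genes, counting a summit once for each gene that contains it. The replicates' strong regions gave 1.02 ± 0.116 (SD, n = 3) and 4.38 ± 0.093 (SD, n = 3) per 100 kb. The replicate values of the members, 0.914 to 1.14, lay far below those of all genes. That spread is between lists over the same 35 genes. It does not measure the uncertainty of a density that rests on 14 thresholded summits, and the difference was not tested. All pooled regions gave 15.7 per 100 kb in the members and 19.4 over all genes. By class of length, thresholded summits stood at 4.67 per 100 kb in members of 5 to 20 kb (5.34 in all such genes), 1.88 at 20 to 50 kb (5.68) and 0 over 50 kb (4). All pooled regions stood at 15.9 (17.3), 17.8 (25.1) and 13.9 (23.6) per 100 kb in the same classes. The 6 members under 5 kb, 5 of them GluRII genes, had no thresholded summit (2.42 in all such genes) and 24.6 pooled regions per 100 kb (8.93). The lower density was thus found mainly in members of at least 20 kb, for strong and for pooled regions. The very long gene Snap25, with 7.55 pooled regions per 100 kb and no thresholded one, contributed to the low values, and without it the members had 1.29 thresholded and 17.4 pooled summits per 100 kb. Sh, with 32 pooled regions in 139 kb, had 23 per 100 kb, close to the overall value, yet its strongest had a pooled rank of 12842. By role, thresholded summits occurred at 0.58 per 100 kb in presynaptic, 3.09 in postsynaptic, 0.948 in channel and 3.04 in identity and transmitter genes. Without Snap25 the presynaptic value was 1.03, above that of the channel genes, so the order of these roles rested on 1 gene. The postsynaptic value came from the 3 dlg1 summits, since the 5 GluRII genes had 0 in 20.2 kb.

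**Figure D4:**
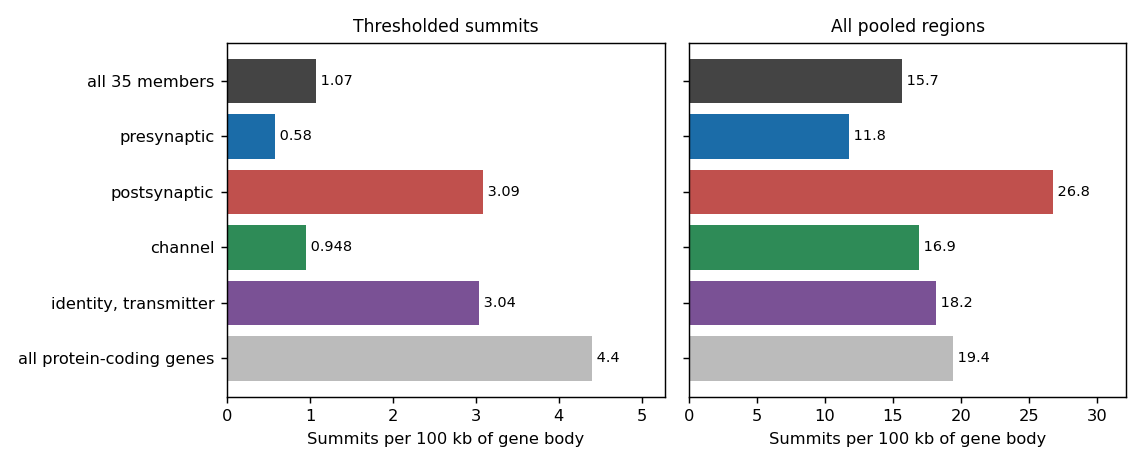
Summits per 100 kb of gene body in all 35 genes, in each role and over all protein-coding genes (grey), for thresholded summits (left) and all pooled regions (right). On the left the members stand at 1.07 against 4.4, and on the right at 15.7 against 19.4.

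Roles were set side by side without a test, the groups being 4 to 12 genes. Of the presynaptic genes 3 of 12 were bound, of the postsynaptic genes 1 of 7, of the channel genes 1 of 12, and of the identity and transmitter genes 1 of 4. The share of all protein-coding genes was 18.9%, and counts this small do not set the roles apart from it or from one another. In the replicates the presynaptic count was 2, 3 and 4, and the channel count 2, 2 and 1, so these roles touched in replicate 1. The postsynaptic count was 1 in every replicate. Of all genes, 20.7%, 20.6% and 22% had a strong region this close in replicates 1, 2 and 3. By the body rule, presynaptic and channel genes were level, at 3 of 12 each, beside 12.5% of all genes, which were mostly shorter. Among the channels, the bound gene Ca-alpha1T is a calcium channel gene, and the genes with body summits, KCNQ, Shal and Shaw, are potassium channel genes.

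Bound members were mostly on the X chromosome. Of the 8 members on X, 4 were bound (elav, dlg1, futsch and Ca-alpha1T), and of the 27 on autosomes 2 were (Syx1A and Nrx-1). Over all protein-coding genes the shares were 23.5% on X and 18.1% on autosomes. Of the 11 autosomal members of 20 to 50 kb none was bound, beside 35.5% of all autosomal genes of that length. In the other autosomal classes 1 of 6 under 5 kb (13.8%), 1 of 8 of 5 to 20 kb (29.9%) and 0 of 2 over 50 kb (35.7%) were bound. On X, where no member was under 5 kb, 1 of 1 of 5 to 20 kb was bound (34.7% of such X genes). For the longer X members the counts were 2 of 2 of 20 to 50 kb (44.2%) and 1 of 5 over 50 kb (47.8%).

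The 17 summits were chosen for lying near a TSS or in a gene body, so their position classes are a description only. Within 500 bp of any annotated TSS lay 6 of them (35.3%), beside 33.3% of all 6600 summits on these chromosomes. A further 10 (58.8%) were in introns, beside 44.1%, and 1 (5.88%) was intergenic, beside 20%. No member summit was in a coding exon, where 0.136% of all summits lay. All 3 replicates covered 12 of the 17 with strong regions (70.6%), beside 71.8% overall. The median pooled rank was 3839, beside 3321 overall. The −log10 q-values, as deposited, were between 2.73 and 3.42 for the 17 peaks.

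Base composition and sequence elements varied among the summits. Mean GC content in windows of the same width was 36.9% ± 8.21 (SD over 17 summits), beside 33.3% ± 7.39 over all 6600, and it ranged from 24.5% at a Shal summit to 51% at the other Shal summit. The SMAD box GTCT, searched on both strands like all elements, was in 9 of the 17 windows (52.9%) and in 41.2% of all. The GC-rich SMAD elements GGCGCC and GCCGNCGC were in no member window and in 1.53% and 0.606% of all windows. The homeodomain core TAATTA was in 3 windows (17.6%), beside 14.8% overall. TATAAA was in 7 (41.2%), beside 32%, and GAGAG in 2 (11.8%), beside 14.6%. CGATA was in 3 (17.6%), beside 17.5%. The element TATCGATA, which contains CGATA, and GGTCACAC were in no member window, beside 1.14% and 0.955%. With 17 windows, 1 window moves a share by 5.88 percentage points.

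Other genes with the same functions, on lists separate from the 35, were set beside the 18.9% of all genes that were bound. Among 18 further genes of vesicle release and the active zone, 3 were bound (16.7%), namely EndoA, stnB and Csp. Their pooled ranks of 5900, 6001 and 6164 were close to the threshold. In the replicates EndoA ranked 5616, 7434 and 9360, stnB 7055, 5598 and 10256, and Csp 11095, 4628 and 5948. None of these genes thus ranked among the strong regions of all 3 replicates. Among 23 receptor and postsynaptic genes, 1 was bound (4.35%), the acetylcholine receptor subunit gene nAChRalpha7 at ranks of 4333, 5457 and 4376 in the replicates. Among 20 further channel and channel-subunit genes, 3 were bound (15%). Irk1, an inward rectifier potassium channel gene, ranked 1170, 1140 and 1449 there, and NaCP60E 2269, 1159 and 1969. Hk, which encodes the auxiliary subunit of the Shaker channel, ranked 2439, 2658 and 4952. A thresholded body summit was present in 1, 4 and 4 genes of the respective lists (5.56%, 17.4% and 20%), beside 12.5% of all genes. The genes with the most were Prosap and Ca-beta, a postsynaptic scaffold and a calcium channel subunit gene, with 5 each. They are 80447 and 47427 bp long, and the shares of these lists were not matched for length. Of all genes of 20 to 50 kb 57.1% had a thresholded body summit, and of those over 50 kb 67.1%.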

How the data were processed

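Peak lists on dm6 were analysed for 3 biological replicates of 1 group, numbered as the labels number them. Per the labels, chromatin was sonicated and fragments of 200 to 800 bp were taken. The deposited listings of source files show regions called in each replicate and in the pool, each with 1 control alignment whose nature is not stated, and a thresholding by irreproducible discovery rate. For the aligner, caller and cutoff, the entry is: not given in the sources used here. The deposited score of each region (scale not stated) was used only for ranks, its deposited −log10 q-value for an alternative ranking, and the deposited offset for the summit. The thresholded list held the 6622 top-scoring pooled regions, which biases it towards sites strong in the pool. The replicate lists shared 292 intervals at most, none with equal scores.

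Genes and TSSs came from Ensembl release 115 of BDGP6.54, which has the dm6 sequence, and all protein-coding genes on 2L, 2R, 3L, 3R, 4 and X were used. Lists on dm3 were not used. Overlap with a replicate region needed 1 bp. All 35 genes are reported, and bound ones in full. The members, lists and alternatives were chosen with earlier results of these data known. No test was made, since no groups were contrasted. Counting was tested on simulated summits. Of 61 genes in the lists of further genes, 3 were matched through synonyms. Python 3.11.15, numpy 2.4.6 and scipy 1.17.1 were used.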

Additional observations from a re-analysis of the deposited data

How the results depend on the processing

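The count of 6 bound genes of 35 kept within 1.5 times under 8 alternatives: TSS windows of 500 bp (4 genes), protein-coding transcripts, peaks in all 3 replicates, whole intervals, each replicate's own list, and requiring the gene's own TSS to be the nearest, which was chosen after seeing the data. It moved to 10 within 2 kb (24% of all genes), to 3 in the strongest 3311 peaks (12.2%), to 1 (elav) in the strongest 1000 (5.13%) and to 23 in the whole pooled list (37.7%). The 9 genes with body summits became 4, 1 (KCNQ) and 30 under the last 3 settings (8.45%, 3.64% and 26.2% of all genes) and 5 without the 1 kb around TSSs (7.58%). The 0.0107 body summits per kb became 0.00659 without that 1 kb and 0.157 with the pooled list. With the pooled list the bound presynaptic, postsynaptic and channel genes were 8, 4 and 9, and with dlg1 counted as presynaptic no postsynaptic gene was bound (0 of 6). The settings themselves take in more or fewer regions. Leaving out a replicate gave means of 6.5 to 7 bound genes and 5 to 6 genes bound in all remaining replicates. GC content was 34.1% in narrower and 41.2% in wider windows.

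Depth is unknown, so a gene without a region cannot be called unoccupied, and lists end at 30000 regions. No paired analysis was possible because there is 1 group.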

Other observations

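Marker genes of neurons, glia and muscle were compared in the same way, since whole animals hold all of these cells, and beside the 18.9% of all protein-coding genes that were bound. Of 7 neuron marker genes, 4 of them also among the 35, 2 were bound: elav and Rbp9, both of the ELAV family of RNA-binding proteins. Rbp9 ranked 660, 748 and 636 in the replicates, at a summit 792 bp downstream of a TSS. The other family member on the list, fne, was not bound but had 2 thresholded summits in its body, the better at a pooled rank of 5389. Of 8 glial marker genes, 3 were bound. The blood-brain barrier receptor gene moody ranked 631, 478 and 444 and the glutamine synthetase gene Gs2 755, 1218 and 649. By contrast, nrv2 lay near the threshold at a pooled rank of 6571, with replicate ranks of 6144, 10383 and 4590. Of 5 muscle marker genes, 2 were bound, the transcription factor gene Mef2 (4330, 4108 and 3817) and the titin-like gene sls (3496, 5974 and 3412). Not bound and without a thresholded body summit were Syt1, brp, nSyb and onecut of the neuron markers. The same held for Eaat1, alrm, gcm, repo and wrapper of the glial and Mhc, bt and up of the muscle markers. No pooled region lay within 1 kb of a TSS of nSyb, onecut, Eaat1, repo, Mhc, bt or up. The lists hold 5 to 8 genes, and their counts carry no test.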
